A study of Mus musculus with 2 samples.

Results

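Tcf1 binding was examined at the loci of 5 transcription factors that T cells need for their development or identity: Fli1, Ets1, Bcl11b, Ikzf1 and Satb1. Members were the Tcf1 peaks whose midpoint lay in 1 of 4 windows, given in mm9 coordinates: chr9:32200000-32600000 for Fli1 and Ets1 together, chr12:108250000-109300000 for Bcl11b and the gene desert beside it, chr11:11550000-11700000 for Ikzf1, and chr17:51800000-52100000 for Satb1. The windows held 9 peaks of the 2827 in the list. The peaks came from chromatin immunoprecipitation and sequencing (ChIP-seq) of CD8 T cells, taken untouched by negative selection from the spleens of wild-type C57BL/6 mice. Cells of this 1 genotype gave both libraries: 1 was precipitated with a custom-made antiserum for Tcf1, and the control used serum of a rabbit taken before immunisation in an unrelated antibody project. The labels name no treatment, and they do not give the age, sex or number of the mice. The data used were the authors' peak intervals and 1 score per peak, with no read counts, so depth is unknown, no peak has a replicate, and the cell type could not be checked against markers. What the score measures is not stated, and it is used here to rank peaks within the list.

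Tcf1, encoded by Tcf7, is an HMG-box protein that binds DNA through a short TCF/LEF motif and can recruit beta-catenin or Groucho/TLE corepressors. In thymic progenitors it acts with Gata3 and Bcl11b to set up the T cell programme, and it is kept in naive and memory CD8 T cells. Fli1 and Ets1 are ETS-family activators whose genes lie side by side, Bcl11b and Ikaros (the product of Ikzf1) are zinc finger proteins, and Satb1 is a chromatin organiser of thymocytes.

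The 4 windows together held more peaks per length than the list as a whole. Their 9 peaks in 1.9 Mb came to 4.74 per Mb (95% exact Poisson interval 2.17 to 8.99). The list as a whole had 1.08 per Mb on its 21 chromosomes, with each length taken up to the last peak. The ratio was 4.40, and the same interval put it between 2.01 and 8.34. These intervals cover counting error only and take peaks as independent, which close peaks are not. The windows were drawn with these peaks known, so their density is given as a description with no test. Peak DNA filled 1555 bp per Mb of the windows and 337 bp per Mb of the list's chromosomes.

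Each window held 2 or 3 peaks. To set these counts against the list, the autosomes were cut into adjoining tiles of the same length as each window. Unlike the tiles, the windows were drawn with their peaks known, so the shares of tiles are descriptions and no test. The Ikzf1 window, the shortest at 150 kb, held 2 peaks, and 2.47% of 16369 such tiles held 2 or more. The Satb1 window of 300 kb held 2 peaks, and 6.40% of 8189 tiles held as many. The Fli1 and Ets1 window of 400 kb also held 2 peaks, a count reached by 9.27% of 6146 tiles. The Bcl11b window of 1050 kb held 3 peaks, and 14.1% of 2344 tiles held 3 or more. A tile of the Ikzf1 length held no peak in 87.0% of cases, and a tile of the Bcl11b length in 43.0%. The fullest tiles held 6 peaks at the Ikzf1 length, 8 at the Satb1 length, 9 at the Fli1 and Ets1 length and 12 at the Bcl11b length. More peaks than the window itself were held by 0.574% of tiles at the Ikzf1 length, 1.88% at the Satb1 length, 3.09% at the Fli1 and Ets1 length and 6.95% at the Bcl11b length. With 2 or 3 peaks each, the Poisson intervals of the 4 densities overlapped widely: 13.3 per Mb (1.61 to 48.2) at Ikzf1 and 2.86 per Mb (0.589 to 8.35) at Bcl11b were the highest and lowest. No order of the loci can be read from them.

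**Figure D1:**
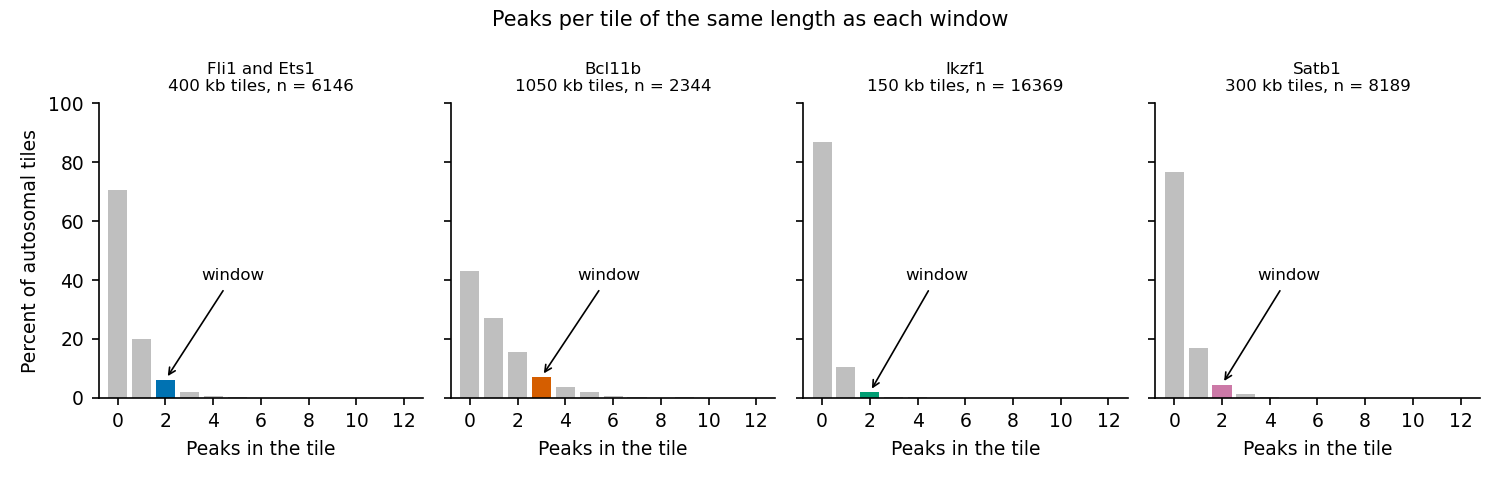
Percent of autosomal tiles (y axis) that held each number of Tcf1 peaks (x axis), for tiles as long as each of the 4 windows. The coloured bar marks the count of the window itself, 2 peaks for Fli1 and Ets1, Ikzf1 and Satb1 and 3 for Bcl11b. The tallest bar is at 0 in every panel. As the windows were drawn with their peaks known, the place of the coloured bar is no test.

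At the ETS genes, both peaks fell in the Fli1 part of the window and none in the Ets1 part. Fli1 is known for its roles in blood and vessel development and in T cell differentiation. Approximate mm9 intervals, given with the window and not taken from an annotation, put Fli1 at about 32.23 to 32.35 Mb and Ets1 at about 32.5 to 32.57 Mb of chromosome 9. The higher-scoring peak, at 32325880 to 32326223, had a score of 22.17, rank 64 of the list and the highest of the 9. Its neighbour at 32317449 to 32317725 scored 8.39, below the list's lower quartile of 8.70. The gap between them was 8.15 kb, and the nearer one to the upper end of the Fli1 interval lay 23.8 kb from it. Counted as places, with peaks within 10 kb as 1 place, the Fli1 and Ets1 window held 1.

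Ets1, an ETS factor that T cells express at high level and that supports T cell receptor genes and survival, had no peak in its interval. The nearest peaks lay 174 kb below and 148 kb above that interval, and an outline of the gene extended by less than 148 kb on either side would still hold none. The list is of strong peaks, and the lack of one does not show that Tcf1 was absent there. Beyond the upper edge of the window, 3 peaks stood at 118, 134 and 136 kb, with scores of 5.59, 10.46 and 17.09. The last of these, at 32735975 to 32736673, ranked 245. Which gene they belong to cannot be given without mm9 annotation. In the RefSeq gene order of GRCm38.p6, Fli1 and Ets1 are neighbouring protein-coding genes with 3 other genes starting between them, and Kirrel3 follows Ets1 as the next protein-coding gene, after 8 others.

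**Figure D2:**
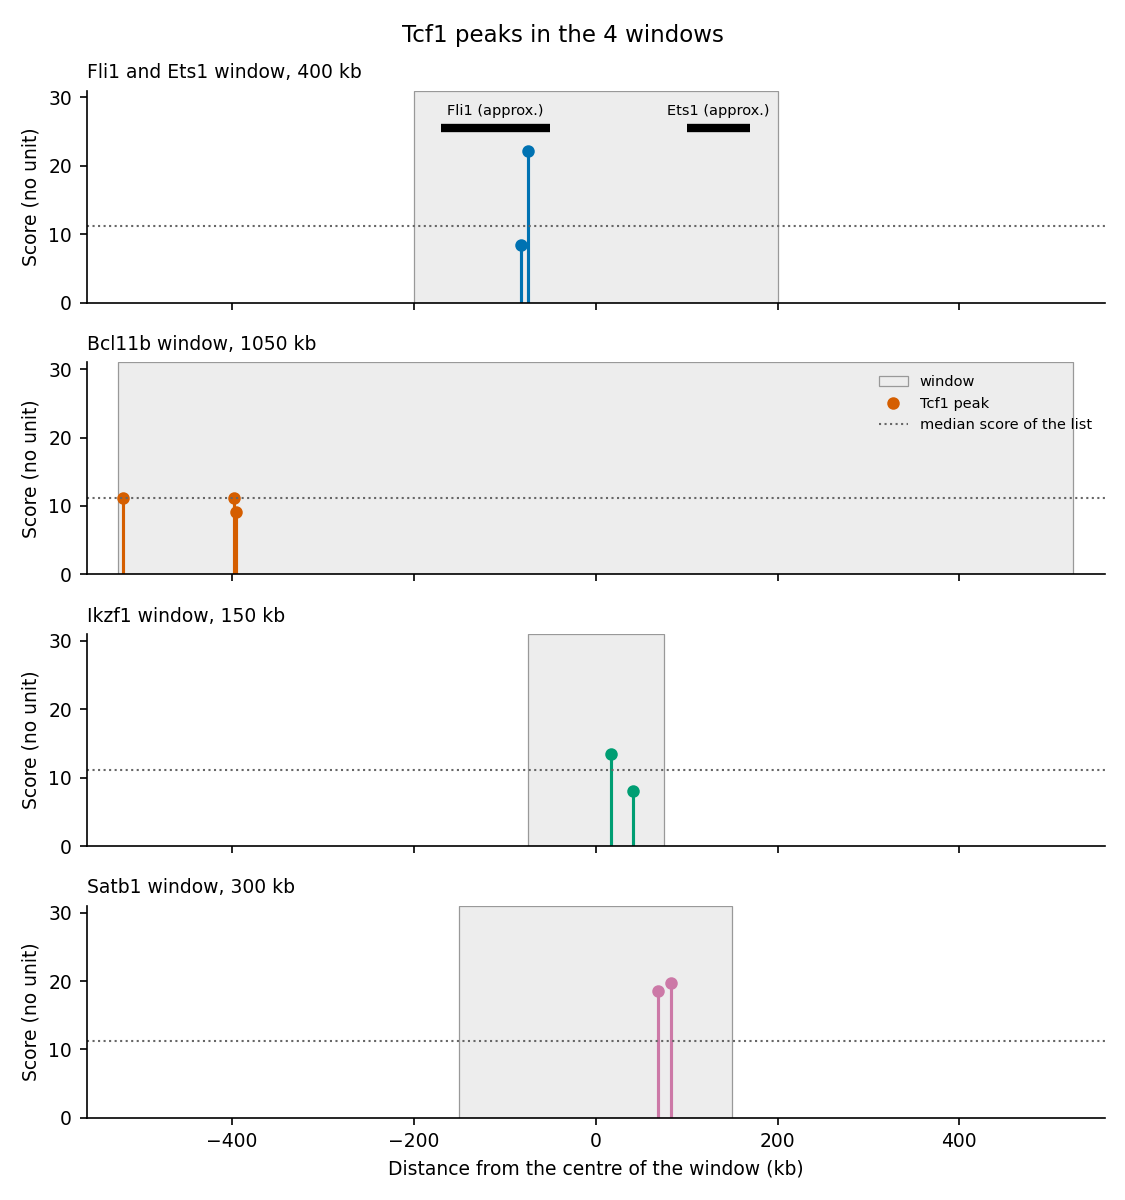
Score of each Tcf1 peak (y axis, no unit) against its distance from the centre of its window in kb (x axis); grey marks the window, the dotted line the median score of the list, and black bars the approximate Fli1 and Ets1 intervals. Both chromosome 9 peaks stand under the Fli1 bar, and the 3 Bcl11b window peaks stand in the lower-coordinate part of their window.

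Bcl11b is the zinc finger factor that T cell progenitors switch on at commitment and need to leave other fates, and long-range control of the gene from the desert beside it is well known. Its window held 3 peaks, with midpoints in the lowest 129.4 kb. The first, at 108255083 to 108255362, scored 11.21, and the next at 108377166 to 108377497 scored 11.11. The last, at 108379077 to 108379661, scored 9.13, and at 585 bp it was the widest of the 9 peaks. By score the 3 ranked 1246, 1434 and 1980 in the list, whose median was 11.17. The last pair was 1.58 kb apart, and 122 kb separated it from the first peak.

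The rest of the Bcl11b window was empty. No peak was listed in the 920 kb from the last of these to the upper edge of the window, and the next peak of the chromosome came 3.88 Mb after it. Of 2648 gaps between successive autosomal peaks, 88 (3.32%) were as long, and the median gap was 431 kb. Below the first peak, 1.22 Mb were free of peaks. In the GRCm38.p6 gene order, Setd3 adjoins Bcl11b on the higher-coordinate side with no gene between, while 5 genes that are not protein-coding lie between Bcl11b and the next protein-coding gene, Gm52008, on the lower side. The place of Bcl11b itself within the mm9 window was not determined, and the same holds for Ikzf1 and Satb1 in their windows. The first peak stood 5.22 kb inside the lower edge, and with the window narrowed by 50 kb on each side 2 peaks were left.

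The sequence under the 9 peaks was not analysed here, since no mm9 sequence was used. As background on the members themselves, promoter sequences were searched on both strands for CTTTGA, 1 form of the TCF/LEF motif. Other forms with the core CTTTG were not counted as matches. The sequences were RefSeq promoter windows in GRCm38.p6, of 250 bases before and 50 after a transcript start. Of the 5 members, 3 (Bcl11b, Ikzf1 and Satb1) had such windows, 8 in all, some of which overlap. A match stood in 1 of the 8 (12.5%), against 16.0% of all 32851 promoter windows. Counted by gene, 1 of the 3 members had a match, against 4911 of all 27025 genes. Both member counts rest on the same 1 match, so no direction can be read from them. The match was in the Bcl11b promoter on the strand of the gene, beginning 89 bases before the start. This window is on the minus strand of GRCm38.p6 chromosome 12, at 108003365 to 108003664, and is shown 5′ to 3′ for that match, with the motif in capitals.
Bcl11b: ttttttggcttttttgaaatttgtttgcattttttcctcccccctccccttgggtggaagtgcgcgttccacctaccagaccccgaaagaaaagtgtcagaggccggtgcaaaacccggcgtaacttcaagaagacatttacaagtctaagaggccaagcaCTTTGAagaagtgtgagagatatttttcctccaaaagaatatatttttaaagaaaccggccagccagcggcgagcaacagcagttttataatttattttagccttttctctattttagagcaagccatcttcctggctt
No peak was placed against this promoter, because the peaks are in another build, and a match is no evidence of binding. With the core CTTTG alone, which every CTTTGA also holds, 5 of the 8 windows (62.5%) matched, against 53.9% of all promoter windows. These lay at Bcl11b, Ikzf1 and Satb1. The Satb1 windows that start at 51812005 and 51812135 overlap and hold the same CTTTG, so that site is counted more than once. A wider list of 23 T cell transcription factor genes had windows for 20 of them, 35 in all, and 3 windows matched CTTTGA (8.57%), those of Bach2, Foxp1 and Lef1. The differences from all promoter windows and from all genes were not tested.

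Ikzf1 encodes Ikaros, a zinc finger regulator of lymphoid development that is also a tumour suppressor in T cells. The 2 peaks of its window differed in score. The peak at 11641591 to 11641908 scored 13.42 and the peak at 11666201 to 11666441 scored 8.05, the lowest of the 9. The first lay above the list median of 11.17 and just under the upper quartile of 13.45, and the second under the lower quartile. They were 24.3 kb apart, and the next peaks lay 219 kb below the first and 569 kb above the second. Narrowing the window by 50 kb on each side left 1 of them. The next peak outside, at 11421853 to 11422165, scored 13.10, against 13.42 for the higher-scoring member. In the GRCm38.p6 gene order the adjoining protein-coding genes are 4930512M02Rik, with 1 other gene between, and Fignl1.

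Satb1 folds chromatin and tethers regulatory regions in thymocytes and T cells, and its window held 2 peaks of high score. The peak at 52018544 to 52018883 scored 18.56 (rank 147) and the peak at 52032221 to 52032457 scored 19.77 (rank 112). They stood at the 94.8th and 96.1st percentile of the list, and of the 4 windows this was the one in which each peak passed the upper quartile. The 2 peaks were 13.3 kb apart. They lay in the upper part of the window, 219 and 232 kb from its lower edge, with 1.15 Mb free of peaks below the first and 269 kb above the second. A gap as long as that below was seen in 26.4% of successive autosomal pairs. The nearest protein-coding genes to Satb1 in GRCm38.p6 are Tbc1d5 and Kcnh8, with 6 and 5 other genes between.

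Over the 9 peaks the scores ran from 8.05 to 22.17, with a median of 11.21 against 11.17 for the list. The 95% interval of the members' median, from the order statistics of the 9 values, was 8.39 to 19.77. It takes the 9 peaks as independent, which close peaks are not. As the windows were drawn with these peaks known, it is a description and no test. Of the 9, 5 were at or above the list median, as were 50.3% of the list, and 3 were at or above the upper quartile, as were 29.4%. Below the lower quartile were 2 of the 9, against 24.9% of the list. With 9 peaks, these shares are near the background and give no result about the members. The 3 high scores belonged to peaks in the Fli1 interval and the Satb1 window, and the 6 others stood between 8.05 and 13.42. The score of the first Bcl11b window peak, 11.21, was shared with 162 other peaks of the list, while the scores 22.17 and 18.56 were held by no other.

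**Figure D3:**
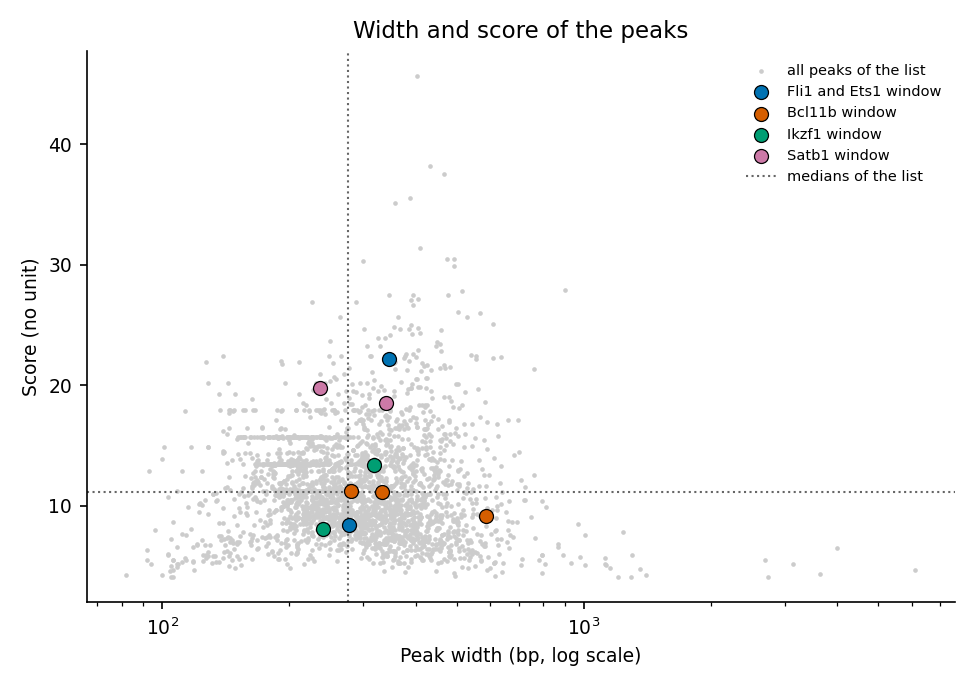
Width (x axis, bp, log scale) and score (y axis, no unit) of the 2827 peaks of the list in grey and the 9 peaks of the 4 windows in colour, with the medians of the list dotted. The Satb1 window pair and 1 peak of the Fli1 and Ets1 window lie at scores of 18.56 to 22.17, and the other 6 lie at 13.42 or less.

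The 9 peaks were of ordinary width. They measured 237 to 585 bp with a median of 318 bp (95% interval of the median 241 to 344 bp), against 276 bp in the list. This interval, too, takes the 9 peaks as independent and is a description only. In all, 8 of 9 lay inside the middle 50% of the list, 216 to 368 bp, where 51.3% of the list lies. The exception was the last Bcl11b window peak at 585 bp, wider than or equal to 96.7% of the list. None reached 1000 bp.

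Of the 9 peaks, 4 had another peak within 10 kb (44.4%), against 16.3% of the list. These 4 were 2 pairs, the peaks in the Fli1 interval and a pair in the Bcl11b window. The peaks of a pair share their gap, so the count rests on 2 gaps and no interval is given for it. Within 5 kb, 2 of 9 had one, against 11.2% of the list. Each of the 4 windows held 1 pair of peaks at most 24.3 kb apart, so 8 of 9 had a neighbour within 25 kb, against 24.2% of the list. At 50 kb the count was again 8, against 33.0%. The distance of 25 kb was chosen after the gaps were seen. These 8 are likewise pairs that share their gap, and a window with 2 peaks is more likely to hold close ones, so they are not independent. The median gap to the nearest peak was 13.3 kb for the members and 151 kb for the list. The first Bcl11b window peak, with 122 kb to its nearest neighbour, was the exception. Scores within a pair were unlike in the Fli1 interval (22.17 and 8.39) and the Ikzf1 window (13.42 and 8.05). They were nearer each other in the Satb1 (19.77 and 18.56) and Bcl11b (11.11 and 9.13) windows.

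**Figure D4:**
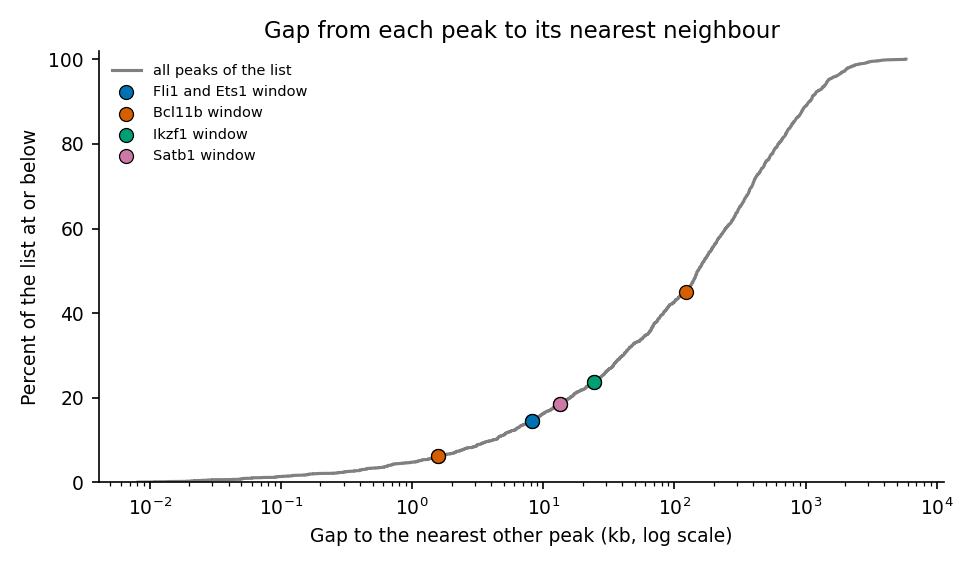
Percent of the list (y axis) whose gap to the nearest other peak is at or below the value on the x axis (kb, log scale), with the 9 peaks of the windows placed on the curve. The peaks of a pair share a gap and fall on 1 point, so 5 points stand for 9 peaks, and 4 of these points lie at 24.3 kb or less.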

How the data were processed

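Chromatin of CD8 T cells was crosslinked, sonicated and precipitated, and libraries were amplified for 18 cycles with fragments of 220 to 400 bp selected, per the labels' protocols. Per the submitters' processing notes, the tools were MACS 1.4.1, Bowtie 0.12.5 and CASAVA 1.8, and the build was mm9; roles and settings are not stated. The authors deposited intervals with 1 score each, and the track line calls them strong peaks. Threshold, use of the control serum, duplicate removal and multi-mapping reads are not given in the sources used here. Any of these decides which loci hold a listed peak. Peaks came from 1 library, so no peak has a replicate, and the control library was not analysed here.

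Peaks were put in a window by midpoint, and gaps were measured edge to edge. Positions are counted from 1. Tiles ran from the start of each autosome to its last peak. RefSeq tables are in GRCm38.p6 and served for gene order and promoter sequence, with no conversion of coordinates. All member peaks, the genes of the rule, the nearest outside peaks and the wider gene list are named by rule. Members, windows and lists were chosen with earlier results of these data known, and no test was made. Counting was tested on simulated lists. Software was SciPy 1.17.1, pandas 2.3.3, NumPy 2.4.6 and, for plots, Matplotlib 3.10.9, under Python 3.11.15.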

Additional observations from a re-analysis of the deposited data

How the results depend on the processing

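Of 43 alternatives to 13 values, 33 stayed within 1.5 times a count or share or within the interval of the value, and 10 moved. No other outcome was scored, so a reversal could not have been recorded. The members' median score was judged against a wide range, the 22.0th to the 96.1st percentile of the list. With only peaks up to 500 bp wide, this median stood at the 62.8th percentile for 8 members, against the 56.0th for all 9. That shift is among those that stayed. The density ratio was likewise judged against its wide interval of 2.01 to 8.34. Counting any overlap with the window kept every count and the ratio unchanged. Restricting to peaks at or above the median score left 1 peak in each of the Fli1 and Ets1, Bcl11b and Ikzf1 windows. That follows from fewer peaks counted. The members' median width then stood at the 69.7th percentile, against the 62.4th for all peaks. This width was 318 bp in both cases, while the list median was 252 bp with the restriction and 276 bp without. Counting peaks within 10 kb as 1 place left 1 place at Fli1 and Ets1, and narrower windows left 1 peak at Ikzf1. A neighbour was found for 2 peaks within 5 kb, and for 8 within 25 kb and 8 within 50 kb, against 4 within 10 kb. CTTTG was in 5 promoter windows and CTTTGA in 1. The density ratio ran from 3.63 (wider windows) to 4.78 (peaks at or above the median score). The list without reads limits every count, since a weak site cannot be told from an absent one. Motifs in the peaks themselves were not run, because no mm9 sequence was used. No paired analysis was possible because there was 1 library per serum.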
